A study of Homo sapiens with 12 samples.

Results

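The genes of fatty acid and triglyceride synthesis were followed in HepG2 cells after exposure to 2,4-D. HepG2 is an established cell line from a human liver tumour that keeps many hepatocyte functions. The compound 2,4-D (2,4-dichlorophenoxyacetic acid) is a phenoxy herbicide that acts as a synthetic auxin in plants. The set held 36 named genes, and the rows of the deposited count table were matched to it by gene symbol. Each of the 36 had 1 row among the 60612 of the table, and 35 passed the filter on low counts that left 17779 genes for testing. THRSP was the member that did not pass. There were 12 libraries in 4 groups of 3 biological replicates: untreated cells, given as 0 min, and cells exposed to 0.001 µM 2,4-D for 10, 30 or 360 min. All groups were the same line at 1 dose, and the labels name no vehicle. Untreated cells matched in time to the exposed ones were not analysed here, so exposure and elapsed time cannot be told apart in any comparison with 0 min.

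Liver cells build fatty acids from citrate that leaves the mitochondria. Citrate is split to acetyl-CoA, acetyl-CoA is carboxylated to malonyl-CoA, and fatty acid synthase joins these units into palmitate, which elongases and desaturases then modify. Acyl-CoA synthetases activate fatty acids, and acyltransferases, phosphatidate phosphatases and diacylglycerol acyltransferases place them on glycerol to make triglyceride for lipid droplets or secreted lipoproteins. The transcription factor encoded by SREBF1 is known for driving many of these genes in liver.

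The libraries held between 29.8 and 83.5 counts in units of 1e6. At that depth the floor of 3 counts lay between 0.0359 and 0.101 counts per 1e6 counts (CPM), which covers counting error only. All 10 hepatocyte markers were measured in every group, with a summed level of 30100 to 34300 CPM over the 12 libraries. FGB, at 24.2 to 31.8 CPM, and TTR, at 52.4 to 65.4 CPM, were the lowest of them. The rest lay between 260 CPM (HNF4A) and 10700 CPM (APOB). Of 18 markers of other cell types, 5 had 0 counts in all 12 libraries: PTPRC (leukocytes), KDR (endothelium), COL1A2 and DCN (fibroblasts) and LEP (adipocytes). Of the others, 6 had counts in every library: CD68 at 48.6 to 64.6 CPM, CIDEC at 21.6 to 29.5, PDGFRB at 1.9 to 3.58, PECAM1 at 0.957 to 1.75, CD14 at 0.394 to 1.02 and PLIN1 at 0.273 to 0.685 CPM. The remaining 7 had 0 counts in at least 1 library and at most 0.33 CPM. Mitochondrially encoded genes took 2.52% to 2.74% of the counts in 5 libraries and 3.55% to 4.39% in the other 7. Of the latter, 1 was at 0 min, 3 at 10 min, 2 at 30 min and 1 at 360 min. Where groups are compared below, a gene is called when its adjusted p in edgeR's quasi-likelihood test, fitted over all 12 libraries and adjusted by Benjamini-Hochberg over the 17779 genes, is under 0.05. Fold changes are on the log2 scale with their standard error (SE), and levels are CPM scaled by TMM, given as mean ± SD with n = 3.

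Before exposure the level of the members per length of their exons spread over more than 2 orders of magnitude. SCD, the desaturase that makes oleate and palmitoleate, was highest at 368 ± 1.8 CPM per kb (SD, n = 3). FASN, fatty acid synthase, followed at 169 ± 3.7, the citrate lyase gene ACLY at 75.6 ± 0.88 and SLC25A1, the mitochondrial citrate carrier, at 69.9 ± 1.2 CPM per kb. No replicate of these 4 genes overlapped its neighbour in the order. ACSL4, DBI, AGPAT2 and PLIN3 came next, between 58.6 and 51.7 CPM per kb, and each of these neighbours overlapped the next. SREBF1 lay at 16 ± 0.38 CPM per kb. Both acetyl-CoA carboxylases were lower than FASN per length, ACACA at 12.3 ± 0.59 and ACACB, the isoform tied to control of fatty acid oxidation, at 2.35 ± 0.11 CPM per kb. Of the diacylglycerol acyltransferases, DGAT1 stood at 24.3 ± 0.61 and DGAT2 at 8.27 ± 0.46 CPM per kb. At the low end were ELOVL6 at 5.15 ± 0.18, LPIN1 at 1.94 ± 0.06 and MID1IP1 at 0.966 ± 0.045 CPM per kb.

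**Figure D1:**
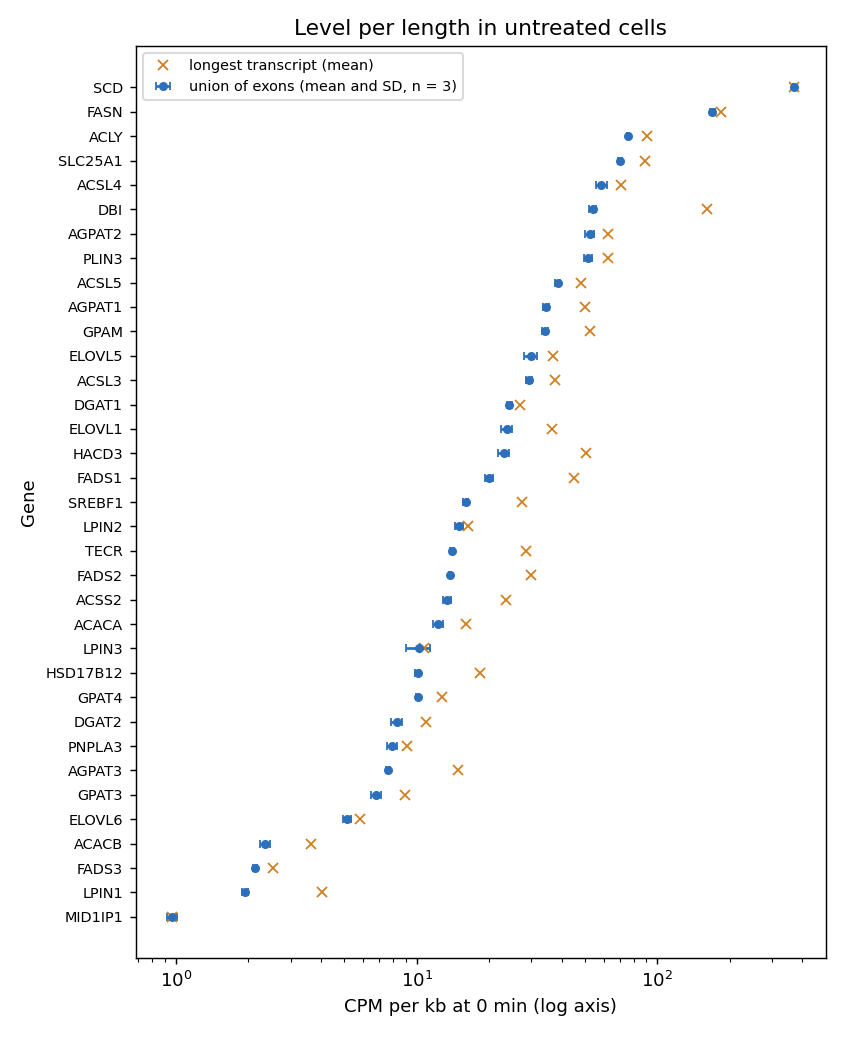
Level per length of the 35 tested genes in untreated cells, in CPM per kb on a log axis. Blue points are means over the union of annotated exons with the SD of 3 libraries, and crosses are means over the longest transcript. SCD and FASN lie above all others under the exon union, at 368 and 169 CPM per kb, and DBI moves most with the choice of length, from 53.9 to 161 CPM per kb.

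THRSP, which encodes the thyroid hormone-responsive Spot protein of lipogenic tissue, had 20 counts over the 12 libraries together and 0 counts in 6 of them. Its highest value was 0.134 CPM, at 0 min. No fold change is given for it, and 48 bases of its exons are shared with NDUFC2 on the opposite strand.

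At 10 min none of the 35 tested genes passed edgeR's test against 0 min, where 0.0169% of all genes did (0.0112% higher and 0.00562% lower). An unadjusted p under 0.05 was found for 8 members and for 10.9% of all genes tested. DESeq2 called 3 members, SCD, ACSL5 and ACSL4, all higher, with 0.979% of all genes called, and limma voom called 0. The member with the smallest p was SCD. Its level was 1967, 1983 and 1966 CPM at 0 min and 2144, 2180 and 2149.9 CPM at 10 min. The groups did not overlap, and the difference was 0.13 ± 0.03 (SE) on the log2 scale with an adjusted p of 0.19 in edgeR. Values for the acyl-CoA synthetase genes, whose products charge fatty acids with coenzyme A, lay on the same side. ACSL5 stood at 164, 166 and 159.6 CPM untreated and at 181, 174 and 181 CPM at 10 min, a difference of 0.13 ± 0.03 (edgeR adjusted p = 0.19). For ACSL4 the difference was 0.14 ± 0.04 (edgeR adjusted p = 0.23), and for ACSL3 it was 0.11 ± 0.04 (edgeR adjusted p = 0.34). In 7 of 35 members all 10 min libraries lay above all 0 min libraries, against 7.73% of all genes, and in 2 all lay below, against 7.72%. The median difference of the members was 0.025, with -0.003 for all genes tested. The mitochondrial share was on its higher side in all 3 libraries of 10 min and in 1 of 3 at 0 min. With the side of that share as a term in edgeR, 8 members had an unadjusted p under 0.05. In that fit 0 members and 0.0225% of all genes were called. What that share contributed to the values of single genes was not tested.

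Against 0 min, 0 members were called at 30 min by edgeR, where 0.765% of all genes were (0.18% higher and 0.585% lower), and 2 had an unadjusted p under 0.05, against 9.29% of all genes. DESeq2 called 1 member, GPAM, with 1.52% of all genes called, and limma voom 0. GPAM encodes the mitochondrial glycerol-3-phosphate acyltransferase, which starts glycerolipid synthesis. It measured 339.7, 343 and 324 CPM at 0 min and 382, 392 and 373 CPM at 30 min. These groups did not overlap, and the difference was 0.19 ± 0.05 (edgeR adjusted p = 0.11; DESeq2 adjusted p = 0.0027). All 30 min libraries lay above all untreated ones in 4 members, GPAM, ACSL4, DGAT2 and SCD (7% of all genes), and below in 0 (7.5% of all genes). The members' median was 0.01 and that of all genes 0.003. From 10 to 30 min, again 0 members were called by edgeR, DESeq2 or limma voom, with 0.574% of all genes called by edgeR (0.163% higher and 0.411% lower). The 4 with an unadjusted p under 0.05, against 11.9% of all genes, were ACSL5 at -0.10 ± 0.03, LPIN2 at -0.13 ± 0.04, ACSL3 at -0.11 ± 0.04 and SCD at -0.09 ± 0.03, with edgeR adjusted p from 0.22 to 0.27. In these 4 all 30 min libraries lay below all 10 min ones (8.96% of all genes), and in 0 members all lay above (8.48%). ACSL5, with the smallest p, was at 181, 174 and 181 CPM at 10 min and at 165, 163 and 171 CPM at 30 min. The 10 min libraries serve in both comparisons, so the higher values at 10 min and the lower ones after it are not independent.

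At 360 min 18 of the 35 tested genes differed from 0 min, 14 lower and 4 higher. The share lower was 40.0%, where 9.19% of all genes tested were called lower, and the share higher was 11.4%, where 8.89% were. With a stricter filter on low counts, 24% of 14000 genes were called in either direction, and 19 members were. The members were chosen with earlier results of these data known, so these shares are not a test of the set. The genes that fell did so by 8.7% to 30.6%, and they included members of most steps: acetyl-CoA supply (ACSS2, ACLY), synthesis (FASN), elongation (ELOVL6), desaturation (SCD, FADS2), activation (ACSL3, ACSL5), and glycerolipid assembly (AGPAT2, AGPAT3, GPAT3, GPAT4, DGAT2), with the lipid droplet protein gene PLIN3. PNPLA3, DGAT1, LPIN1 and GPAM rose, by 10.5% to 32.0%. An unadjusted p under 0.05 was found for 24 members and for 30.5% of all genes. In 16 members all 360 min libraries lay below all untreated ones (45.7%, against 17.3% of all genes), and in 6 all lay above (17.1%, against 18.3%). The median over the members was -0.097 and that of all genes was 0.001. With 0 min replicate 1 as the lone untreated library, the median was -0.069. Fewer members and fewer of all genes passed in that fit, and the calls it lost are given below for single genes. No called member changed sign in any of the 16 alternatives tried. As the groups of these members did not overlap, leaving out libraries could hardly have changed a sign. The summed level of the 10 hepatocyte markers was 30100 to 32300 CPM at 0 min and 33100 to 34300 CPM at 360 min. The sum of the 4 adipocyte markers, nearly all of it CIDEC, was 25.9 to 27.9 CPM at 0 min and 22.3 to 24.2 CPM at 360 min. That of the 6 fibroblast and stellate markers was 2.57 to 3.72 CPM at 0 min and 1.9 to 2.39 CPM at 360 min. The sums of the 4 endothelial (1.29 to 1.87 and 1.69 to 1.88 CPM) and 4 leukocyte markers (49.4 to 57.1 and 51.8 to 56.6 CPM) overlapped between 0 and 360 min. APOB, 1 of the 10 hepatocyte markers, went from 9000 ± 660 to 10500 ± 230 CPM. Both APOB and CIDEC are also genes of the pathway lists below, so these sums do not mark cell type alone. The part of these marker levels in the members' values was not tested. In bulk libraries, fewer cells that express a gene and less of its RNA per cell cannot be told apart.

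**Figure D2:**
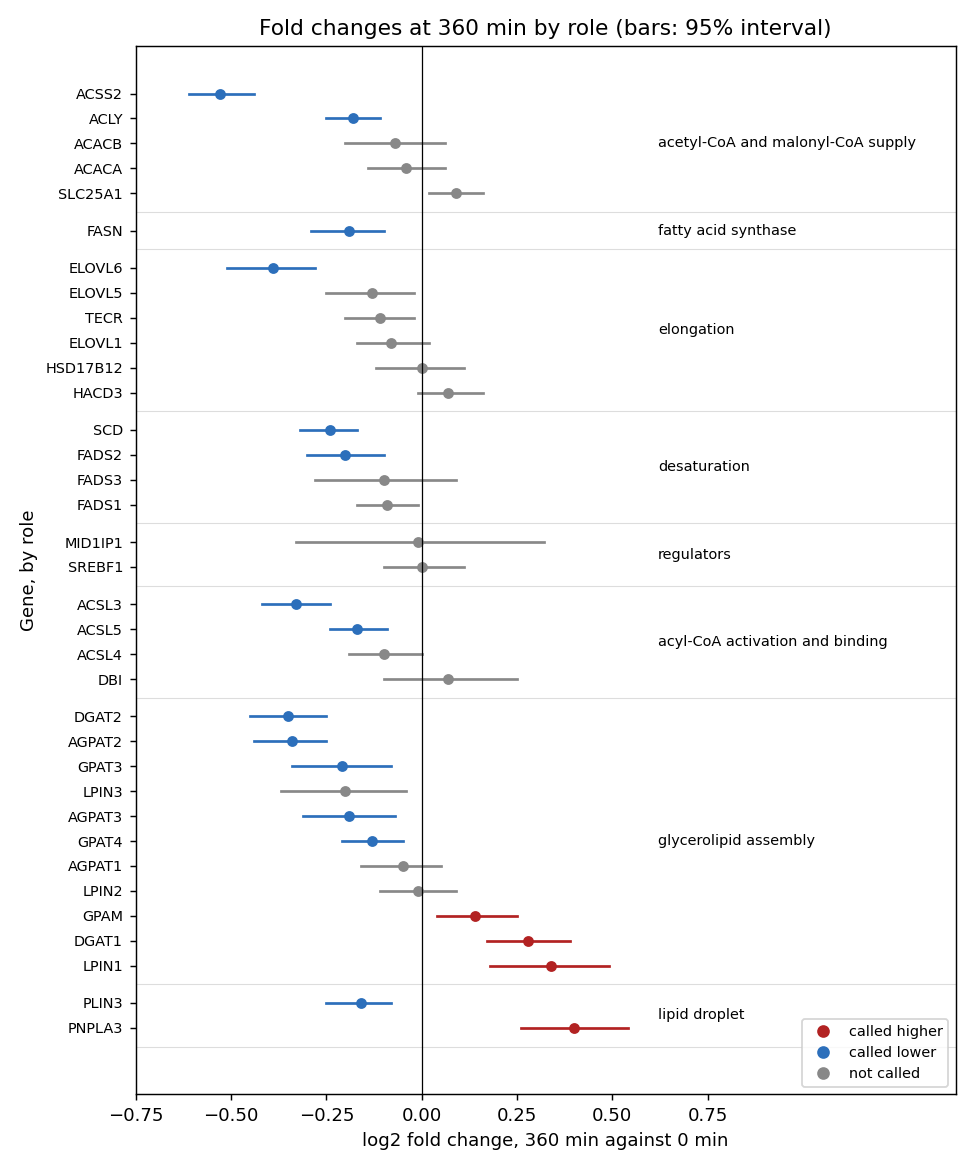
Log2 fold change of the 35 tested genes at 360 min against 0 min, grouped by role, with bars for the 95% interval from the fitted SE. Genes called lower are blue, genes called higher are red and grey genes did not pass. The 14 lower genes reach from -0.13 to -0.53 and the 4 higher ones from 0.14 to 0.40.

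Promoter stretches are shown for 4 genes that fell and 1 that rose, from acetyl-CoA supply, desaturation, elongation and glycerolipid assembly. LPIN1, the gene of glycerolipid assembly, is also the one that rose, so step and direction are not separated. Stretches of AGPAT2, AGPAT3 and GPAT3, assembly genes that fell, are not shown. The windows are RefSeq's on GRCh38.p14, from 250 bases before to 50 bases after a start site, and 29 of the 36 members had at least 1, with 50 windows in all. FASN, PNPLA3, GPAT4, LPIN3, DGAT1, DGAT2 and HSD17B12 had no entry. Each stretch reads 5′ to 3′ on the gene's strand and is a run before 1 of the gene's starts that lies in no annotated exon. Capitals mark matches to the GC box GGGCGG, the CCAAT box CCAAT, the E-box CACGTG or the sterol element TCACNCCAC, on either strand.
ACSS2, chr20:34874739-34874941, plus strand: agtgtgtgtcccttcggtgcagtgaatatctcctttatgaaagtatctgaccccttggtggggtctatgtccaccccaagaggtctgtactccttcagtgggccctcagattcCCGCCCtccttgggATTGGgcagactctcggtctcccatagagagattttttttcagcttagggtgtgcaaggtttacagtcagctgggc
SCD, chr10:100346983-100347123, plus strand: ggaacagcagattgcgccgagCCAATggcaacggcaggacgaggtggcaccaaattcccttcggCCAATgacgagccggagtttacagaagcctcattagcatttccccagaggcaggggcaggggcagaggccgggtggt
ELOVL6, chr4:110198677-110198841, minus strand: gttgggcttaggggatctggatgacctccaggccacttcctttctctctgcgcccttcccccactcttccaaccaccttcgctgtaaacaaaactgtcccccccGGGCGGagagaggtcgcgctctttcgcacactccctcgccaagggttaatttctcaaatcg
ACLY, chr17:41919023-41919201, minus strand: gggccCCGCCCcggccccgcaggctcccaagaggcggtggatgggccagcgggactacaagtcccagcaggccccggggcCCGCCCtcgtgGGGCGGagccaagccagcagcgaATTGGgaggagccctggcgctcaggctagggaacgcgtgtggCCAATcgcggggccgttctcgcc
LPIN1, chr2:11746382-11746587, plus strand: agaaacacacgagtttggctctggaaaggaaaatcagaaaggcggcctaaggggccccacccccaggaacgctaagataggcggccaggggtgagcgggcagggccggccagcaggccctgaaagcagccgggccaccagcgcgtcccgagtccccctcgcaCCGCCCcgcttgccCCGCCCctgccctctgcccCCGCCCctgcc

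These stretches differ in the motifs they hold. In SCD a pair of CCAAT boxes is marked, and ACLY has 3 GC boxes and 2 CCAAT boxes. ELOVL6 has 1 GC box, ACSS2 has 1 GC box and 1 CCAAT box, and LPIN1 has 3 GC boxes. The stretches run from 141 to 206 bases, leave out exonic bases and belong to 1 start each, so these counts do not compare whole promoters. The SCD window also holds GC boxes from positions -33 and -11, outside the stretch. Stretches before other starts of LPIN1 hold 0 and 1 matches. Over the full windows, GGGCGG was found in 37 of 50 member windows (74.0%) and in 45.0% of all 35116 windows, and CCAAT in 27 (54.0%) and 34.6%. The E-box CACGTG was in 4 member windows (8.0%), those of DBI, ELOVL5 and LPIN2, and in 7.26% of all. None of these 3 genes was called at 360 min against 0 min. TCACNCCAC, which includes the sterol element TCACCCCAC, was found in 1 member window (2.0%), that of MID1IP1, and in 1.13% of all. MID1IP1 has a single window, and the match there lies 40 to 32 bases before the start, on the minus strand of the gene. Some genes have several windows that overlap, so the windows are not independent. A match is only a run of letters in a window.

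Among the genes that supply acetyl-CoA and malonyl-CoA, 2 of 5 fell and 0 rose. For this and the other roles, 9.19% of all genes tested were called lower at 360 min and 8.89% higher. ACSS2 (chromosome 20, 34872146 to 34927962, plus strand) encodes the synthetase that turns acetate into acetyl-CoA outside the mitochondria. It was at 74.9, 71.5 and 69.5 CPM untreated, between 74.5 and 77.8 CPM in the 6 libraries of 10 and 30 min, and at 47.8, 50.6 and 51.3 CPM at 360 min. The 360 min libraries were the lowest of all 12, and the gene fell by 0.53 (SE 0.04, edgeR adjusted p = 1.9e-06), the largest change among the members. ACLY (chromosome 17, 41866908 to 41930542, minus strand) makes acetyl-CoA from citrate. Its values were 397, 397 and 389 CPM untreated and 341, 347 and 360.5 CPM at 360 min. It fell by 0.18 (SE 0.03, edgeR adjusted p = 0.0016), again with no overlap of the groups. The citrate carrier gene SLC25A1 had 146, 144 and 149 CPM untreated and 157, 152 and 159 CPM at 360 min. Those groups did not overlap either, but the difference of 0.09 ± 0.03 did not pass (edgeR adjusted p = 0.05 after rounding), though it did in 4 of 16 alternatives.

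Neither acetyl-CoA carboxylase gene was called. ACACA, whose enzyme makes malonyl-CoA for synthesis, was at 154, 169 and 158 CPM untreated and at 158, 153 and 158 CPM at 360 min. The groups overlapped, and the 95% interval of the difference ran from -0.14 to 0.06. ACACB differed by -0.07 ± 0.06 (edgeR adjusted p = 0.46), with values between 31.0 and 35.2 CPM in the 12 libraries. FASN (chromosome 17, 82078333 to 82098332, minus strand), the next enzyme in the pathway, had 1553, 1619 and 1567 CPM at 0 min, 1672, 1629 and 1486 CPM at 10 min, 1597, 1510.4 and 1577 CPM at 30 min and 1345, 1380.2 and 1418 CPM at 360 min. All 3 libraries at 360 min were below the other 9, and the gene fell by 0.19 (SE 0.04, edgeR adjusted p = 0.0071). With 0 min replicate 1 as the lone untreated library that call was lost (edgeR adjusted p = 0.12).

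Of 6 elongation genes 1 fell and 0 rose (9.19% and 8.89% of all genes). ELOVL6 (chromosome 4, 110045846 to 110199199, minus strand), the elongase that extends palmitate to stearate, had 36.3, 37.4 and 39.0 CPM untreated and 27.6, 27.4 and 30.7 CPM at 360 min. It fell by 0.39 (SE 0.05, edgeR adjusted p = 0.00019), and the libraries of 10 and 30 min, at 34.6 to 38.4 CPM, all lay above those of 360 min. The other members of the elongation cycle moved less. ELOVL5, which acts on polyunsaturated fatty acids, was at -0.13 ± 0.05 (edgeR adjusted p = 0.092), and ELOVL1, which makes very long chains, at -0.08 ± 0.04 (edgeR adjusted p = 0.23). Without 0 min replicate 1, ELOVL5 was called at -0.19 (edgeR adjusted p = 0.017). The reductase genes HSD17B12 and TECR and the dehydratase gene HACD3 complete each round. HSD17B12 had a 95% interval from -0.12 to 0.11, TECR was at -0.11 ± 0.04 (edgeR adjusted p = 0.076) and HACD3 at 0.07 ± 0.04 (edgeR adjusted p = 0.21), though HACD3 was called at 0.16 with the lone untreated replicate 1 (edgeR adjusted p = 0.042). TECR shares 211 exonic bases with DNAJB1 on the opposite strand, and DNAJB1 was itself at 0.34 at 360 min (edgeR adjusted p = 0.00031).

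Of 4 desaturase genes 2 fell and 0 rose (9.19% and 8.89% of all genes). SCD (chromosome 10, 100347124 to 100364834, plus strand) was at 1651, 1599 and 1749 CPM at 360 min, below the 1967, 1983 and 1966 CPM of untreated cells and the 1998, 2019 and 2059 CPM of 30 min. It fell by 0.24 (SE 0.03, edgeR adjusted p = 0.00025), and in CPM this was the largest difference of all members. FADS2, which takes the first desaturation step of polyunsaturated fatty acid synthesis, measured 154, 153 and 150 CPM untreated and 127, 128 and 144 CPM at 360 min. It fell by 0.20 (SE 0.04, edgeR adjusted p = 0.0074), with replicate 3 of 360 min nearest to the untreated libraries. The call was lost with 0 min replicate 1 as the lone untreated library (edgeR adjusted p = 0.059). FADS1, the partner desaturase beside it on chromosome 11, was at -0.09 ± 0.04 (edgeR adjusted p = 0.092) and FADS3 at -0.10 ± 0.08 (edgeR adjusted p = 0.46). Without 0 min replicate 1, FADS1 was called at -0.13 (edgeR adjusted p = 0.028). FADS1 and FADS2 share 490 exonic bases on opposite strands, and their reads there cannot be told apart without strand.

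The regulators in the set did not pass. SREBF1 (chromosome 17, 17810399 to 17837002, minus strand) was at 129.7, 125 and 130 CPM at 0 min, 136, 135 and 123 CPM at 10 min, 136, 126 and 135 CPM at 30 min and 124, 127 and 135 CPM at 360 min. The 4 groups overlapped, and the difference between 360 and 0 min had a 95% interval from -0.10 to 0.11. SREBF1 shares 556 exonic bases with RAI1 on the opposite strand, which was at -0.21 (edgeR adjusted p = 0.005). MID1IP1, whose product promotes assembly of acetyl-CoA carboxylase into filaments, had 2.96 to 4.16 CPM over the 12 libraries. Its interval at 360 min, -0.33 to 0.32, was the widest of the members.

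Among the genes that activate and bind acyl-CoA, 2 of 4 fell and 0 rose (9.19% and 8.89% of all genes). ACSL3, a synthetase found on lipid droplets and the endoplasmic reticulum, was at 206, 216 and 217 CPM untreated, 226, 235 and 227 CPM at 10 min, 214, 219 and 203 CPM at 30 min and 169, 163 and 176 CPM at 360 min. All 360 min libraries were below all others, and the gene fell by 0.33 (SE 0.04, edgeR adjusted p = 8.8e-05). ACSL5, with 146, 141 and 149.6 CPM at 360 min, was likewise below its untreated level of 163 ± 3.3 CPM. It fell by 0.17 (SE 0.03, edgeR adjusted p = 0.0036). ZDHHC6 shares 144 exonic bases with ACSL5 on the opposite strand and was at 0.10 (edgeR adjusted p = 0.22). ACSL4, which prefers arachidonate, had 355, 389.7 and 382 CPM untreated and 343, 357 and 355 CPM at 360 min. There the groups overlapped through 0 min replicate 1, and the gene was at -0.10 ± 0.04 (edgeR adjusted p = 0.12). Without that library ACSL4 was called at -0.14 (edgeR adjusted p = 0.021). DBI, the acyl-CoA-binding protein, was at 0.07 ± 0.08 (edgeR adjusted p = 0.59).

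**Figure D3:**
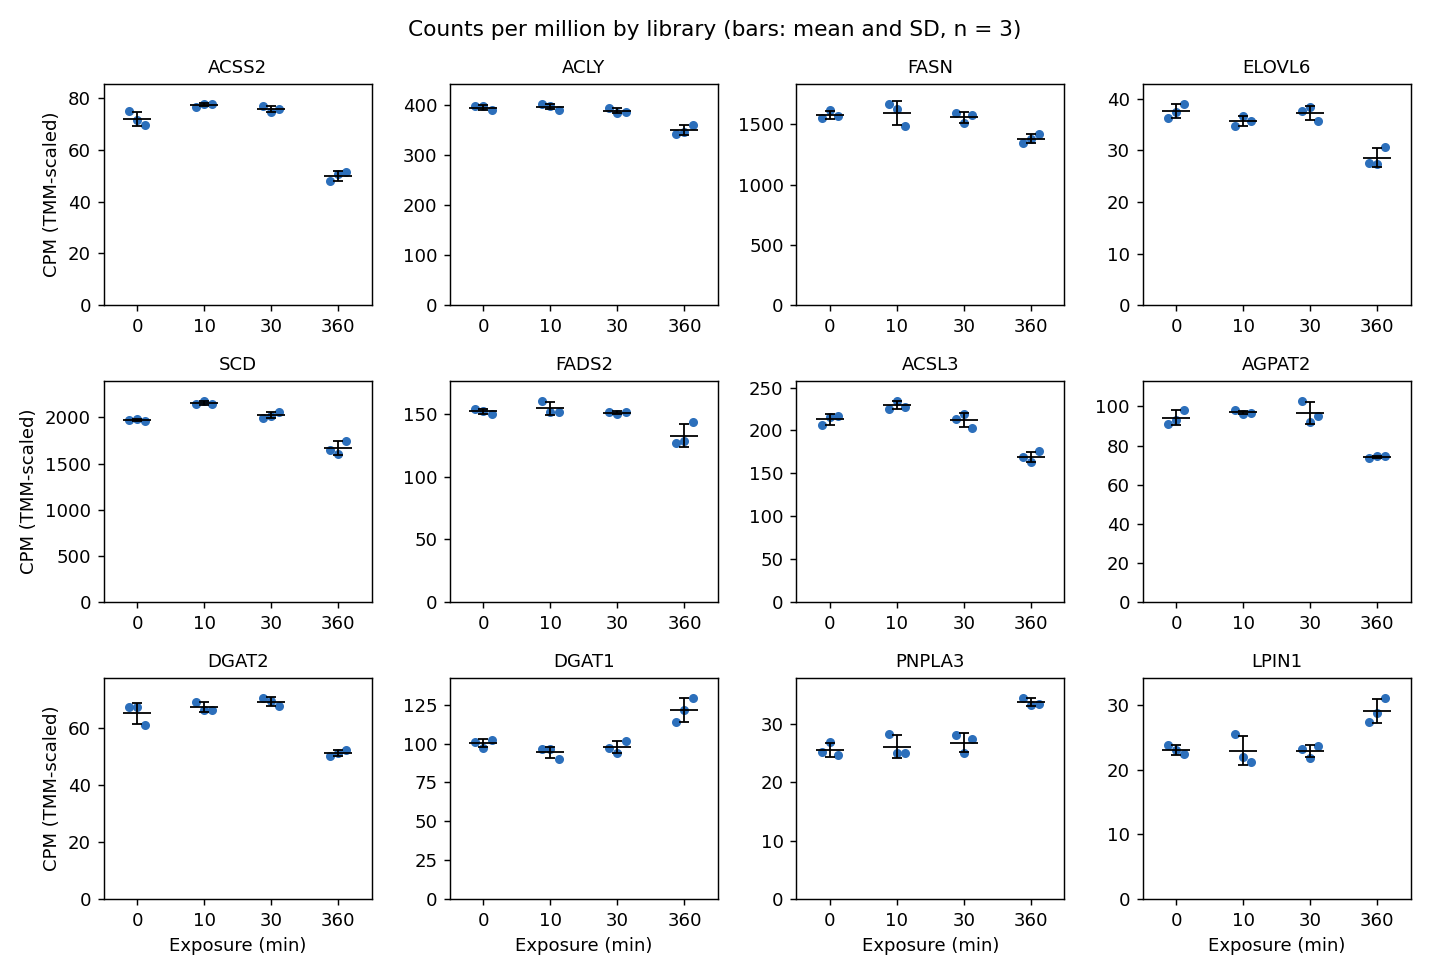
TMM-scaled CPM of 12 members in each library against exposure in min, with black bars for mean and SD of 3 libraries and axes that start at 0. In the first 9 panels (ACSS2 to DGAT2) the 3 libraries at 360 min lie below all others, and in DGAT1, PNPLA3 and LPIN1 they lie above all others.

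The glycerolipid assembly genes went in both directions, with 5 of 11 lower and 3 higher (9.19% and 8.89% of all genes). At the first step GPAM was at 373, 385 and 354 CPM at 360 min, above all untreated libraries, and rose by 0.14 ± 0.05 (edgeR adjusted p = 0.047). This call was the least stable of the 18 and was lost in 10 of 16 alternatives, with an edgeR adjusted p up to 0.30. Among these were the omission of 0 min replicate 1, 2 or 3 (0.085, 0.07 and 0.16) and of 360 min replicate 1 or 2 (0.12 and 0.20). GPAT3 and GPAT4 encode acyltransferases of the same step in the endoplasmic reticulum. GPAT3 went from 22.5, 24.6 and 23.4 CPM to 20.8, 20.7 and 19.6 CPM and fell by 0.21 (SE 0.06, edgeR adjusted p = 0.02). GPAT4 went from 79.0, 80.5 and 81.0 CPM to 70.7, 74.9 and 74.0 CPM and fell by 0.13 (SE 0.03, edgeR adjusted p = 0.017). In both genes the groups did not overlap. The call of GPAT3 was lost in 4 of 16 alternatives, among them without 0 min replicate 2 (edgeR adjusted p = 0.085) or 360 min replicate 3 (0.078). That of GPAT4 was lost in 5, among them without 0 min replicate 2 (0.051), 0 min replicate 3 (0.06) or 360 min replicate 1 (0.083).

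At the second acylation step, where phosphatidate is made, AGPAT2 (chromosome 9, 136673143 to 136687423, minus strand) had 91.0, 93.2 and 98.4 CPM untreated and 73.8, 74.6 and 74.7 CPM at 360 min. The 360 min replicates were close to each other and far below the 92.0 to 103 CPM of 10 and 30 min, and AGPAT2 fell by 0.34 (SE 0.04, edgeR adjusted p = 0.00012). AGPAT2 is the isoform whose loss causes generalized lipodystrophy in people. AGPAT3 fell by 0.19 (SE 0.05, edgeR adjusted p = 0.026), from 86.5, 86.9 and 84.2 CPM to 76.4, 68.8 and 80.2 CPM. The call was lost when untreated replicate 1 or 2 was omitted (edgeR adjusted p = 0.055 and 0.077) and when replicate 1 or 2 of 360 min was (0.056 and 0.084). AGPAT1 was at -0.05 ± 0.04 (edgeR adjusted p = 0.46), and 1087 of its 3631 exonic bases are shared with the readthrough gene PPT2-EGFL8 on the opposite strand.

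The 3 lipin genes encode phosphatidate phosphatases, which make diacylglycerol. LPIN1 (chromosome 2, 11677595 to 11827409, plus strand), which also acts as a nuclear coregulator, was at 23.8, 23.0 and 22.3 CPM untreated, 21.2 to 25.4 CPM at 10 and 30 min, and 27.4, 28.7 and 31.1 CPM at 360 min. The 360 min values were the highest of the 12, and LPIN1 rose by 0.34 ± 0.07 (edgeR adjusted p = 0.0042). With the lone untreated replicate 1 it was not called (edgeR adjusted p = 0.11). LPIN2 was at -0.01 ± 0.04 (edgeR adjusted p = 0.89). LPIN3 was at -0.20 ± 0.07 (edgeR adjusted p = 0.069), and its untreated libraries were spread from 41.3 to 52.3 CPM. It was called lower in 6 of 16 alternatives, among them without 0 min replicate 2 (edgeR adjusted p = 0.011).

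The last step, from diacylglycerol to triglyceride, is catalysed by the enzymes of DGAT1 and DGAT2, which are unrelated in sequence family. DGAT2 (chromosome 11, 75759512 to 75801535, plus strand) is the one mostly tied to newly made fatty acids in liver. It was at 67.6, 67.4 and 61.1 CPM at 0 min, 69.4, 66.5 and 66.4 CPM at 10 min, 70.8, 69.7 and 67.8 CPM at 30 min and 50.2, 51.2 and 52.4 CPM at 360 min, and it fell by 0.35 (SE 0.04, edgeR adjusted p = 1e-04). DGAT1 was at 101, 97.3 and 102 CPM at 0 min, 96.3, 96.5 and 90.4 CPM at 10 min, 97.2, 93.9 and 102 CPM at 30 min and 114, 122 and 129 CPM at 360 min. It rose by 0.28 ± 0.05 (edgeR adjusted p = 0.0014). In both genes the 360 min libraries stood apart from all 9 others, on opposite sides. HSF1, which shares 139 exonic bases with DGAT1 on the opposite strand, was at -0.13 (edgeR adjusted p = 0.043), and AC233992.1, which shares 444 on the same strand, had 12 counts in all libraries. Counted within a library, a measure that no scaling can change, there were 0.668, 0.692 and 0.599 DGAT2 counts per DGAT1 count in untreated cells. After 10 min the ratios were 0.721, 0.689 and 0.734, after 30 min they were 0.728, 0.743 and 0.667, and after 360 min they were 0.442, 0.421 and 0.405. Each 360 min ratio was below every other.

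**Figure D4:**
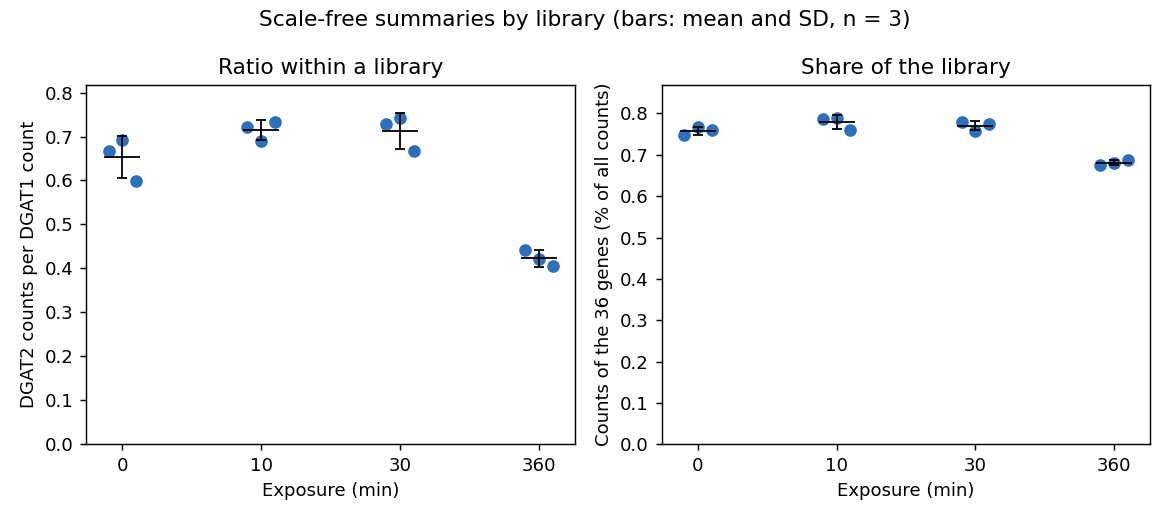
Left, DGAT2 counts per DGAT1 count in each library, and right, counts of the 36 genes as a percentage of all counts, against exposure in min, with bars for mean and SD of 3 libraries. The ratio is 0.599 to 0.743 in the 9 libraries up to 30 min and 0.405 to 0.442 at 360 min, and the share is 0.748% to 0.790% and 0.675% to 0.687%.

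Both genes of lipid droplet proteins were called, in opposite directions. PNPLA3 (chromosome 22, 43923739 to 43964488, plus strand), a lipid droplet protein whose variants are a known risk factor for fatty liver, was at 25.2, 26.8 and 24.6 CPM untreated, 24.9 to 28.3 CPM at 10 and 30 min, and 34.5, 33.3 and 33.5 CPM at 360 min. With no overlap between the groups, it rose by 0.40 ± 0.06 (edgeR adjusted p = 0.00052), the largest rise in the set. SAMM50 shares 148 exonic bases with PNPLA3 on the same strand, had 410% of its counts and was at 0.12 (edgeR adjusted p = 0.011). PLIN3, a droplet coat protein, went from 140, 151 and 146 CPM to 127, 127 and 136 CPM and fell by 0.16 (SE 0.04, edgeR adjusted p = 0.0076), a call lost with the lone untreated replicate 1 (0.18). AC027319.1 shares 502 of its 2813 exonic bases on the opposite strand, with 0.863% of its counts.

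**Figure D5:**
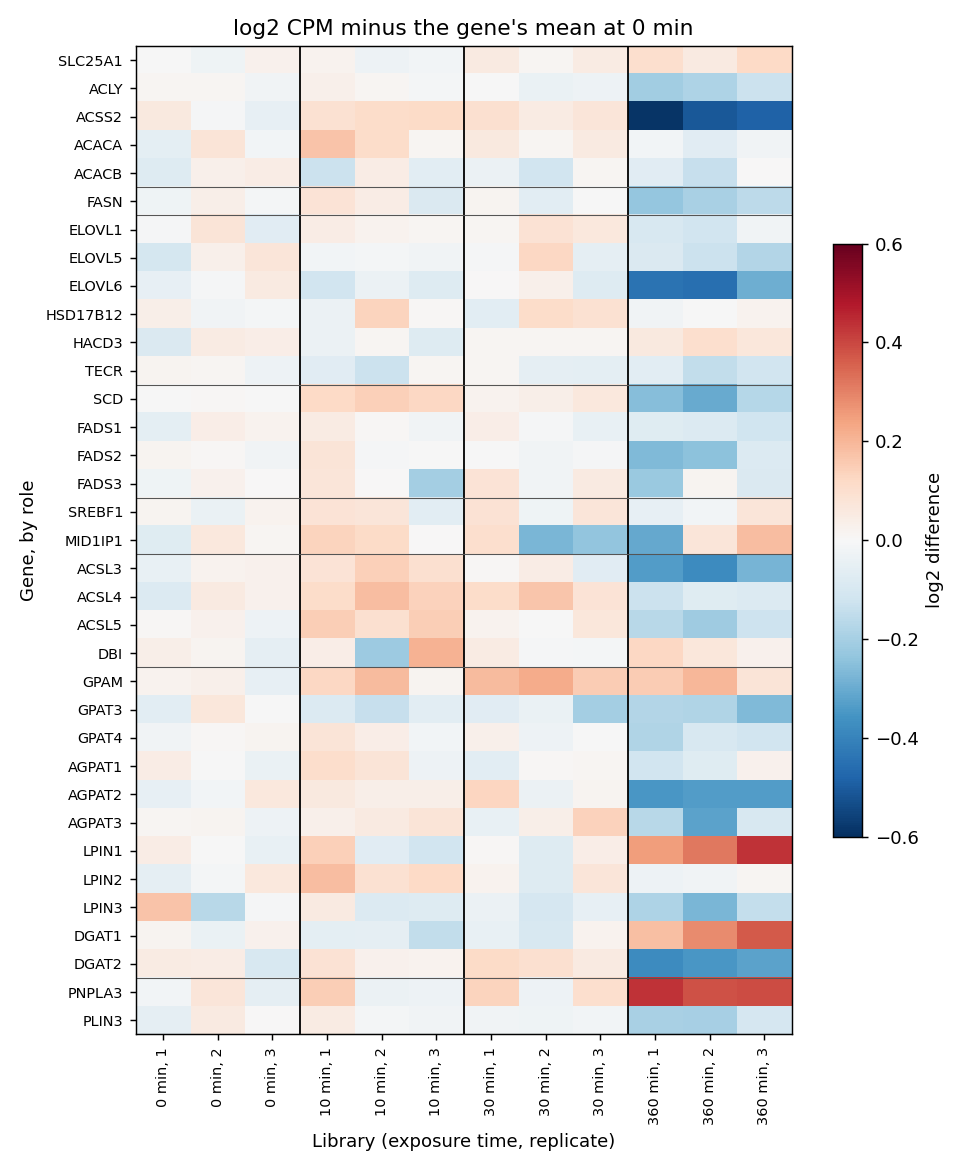
Difference of each library's log2 CPM from the gene's mean at 0 min, for the 35 tested genes in order of role (rows) and the 12 libraries (columns), blue for lower and red for higher. The 3 columns of 360 min carry nearly all of the strong colours, with ACSS2 the deepest blue, while the columns of 10 min are pale red for SCD and the ACSL genes.

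The 36 genes together made up 0.748%, 0.767% and 0.760% of all counts in untreated libraries. They took 0.787%, 0.790% and 0.759% after 10 min and 0.780%, 0.758% and 0.774% after 30 min. After 360 min their share was 0.675%, 0.680% and 0.687%. SCD and FASN accounted for 47.0% to 47.2% of these counts in untreated cells and for 44.2% to 45.2% at 360 min. Each 360 min library was below all others in both shares.

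Between 30 and 360 min, 16 members were lower and 3 higher, or 45.7% and 8.57%, where 11.3% and 11.4% of all genes were called lower and higher (22.7% in all). An unadjusted p under 0.05 was found for 20 members and for 34.4% of all genes. All 360 min libraries lay below all 30 min libraries in 20 members (57.1%, against 20% of all genes) and above them in 4 (19.8% of all genes). This comparison uses the same 360 min libraries as that with 0 min, so the results are not independent. Of the members called against 0 min, 16 were called in the same direction against 30 min, 13 lower and 3 higher, and the 2 that were not were GPAM and GPAT3. ACSS2 fell by 0.60 (SE 0.04, edgeR adjusted p = 3.4e-07), DGAT2 by 0.44 (SE 0.04, edgeR adjusted p = 1.2e-05) and AGPAT2 by 0.38 (SE 0.04, edgeR adjusted p = 3.5e-05), while DGAT1 rose by 0.32 ± 0.05 (edgeR adjusted p = 4e-04). GPAM, already at 382 ± 9.5 CPM at 30 min, was at -0.04 ± 0.05 (edgeR adjusted p = 0.54).

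Called against 30 min but not against 0 min were ACSL4, ELOVL1 and ELOVL5. ACSL4 was at 405, 421 and 397 CPM at 30 min and 343, 357 and 355 CPM at 360 min, without overlap, and fell by 0.21 (SE 0.04, edgeR adjusted p = 0.0021). ELOVL1 had 59.9, 63.1 and 61.9 CPM at 30 min and 55.5, 54.9 and 58.5 CPM at 360 min (-0.13 ± 0.04, edgeR adjusted p = 0.037). ELOVL5 had 113, 124 and 109 CPM at 30 min and 107, 104 and 101 CPM at 360 min (-0.15 ± 0.05, edgeR adjusted p = 0.044). These last calls were each lost in 7 of 15 alternatives, which included the omission of 30 min replicate 2 (edgeR adjusted p = 0.11 for ELOVL1 and 0.17 for ELOVL5) and of 360 min replicates 1 and 2. ELOVL1 also lost it without 30 min replicate 3 (0.07), and ELOVL5 without 30 min replicate 1 (0.069) or 360 min replicate 3 (0.15). GPAT4 lost its call when replicate 1 of 30 min (0.056) or of 360 min (0.07) was omitted, and PLIN3 when replicate 1 of 360 min was (0.058).

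The members were also compared within each side of the mitochondrial share, as mean log2 CPM differences without a test. On the low side, with 2 libraries at each of 0 and 360 min, the 14 genes called lower and the 4 called higher all kept their sign. On the high side, with 1 library at each time, they kept it as well. In all of these genes the 360 and 0 min groups did not overlap, so no other sign was possible on either side. Only the sizes of the differences can be compared. ACSS2 was at -0.52 and -0.55 on the low and high sides, DGAT2 at -0.34 and -0.37, and PNPLA3 at 0.40 and 0.41. Other differences were smaller on the high side: ELOVL6 was at -0.47 and -0.24, FADS2 at -0.25 and -0.10, AGPAT3 at -0.24 and -0.11, GPAM at 0.19 and 0.06, and PLIN3 at -0.22 and -0.04. With the side as a term in edgeR, 16 members were lower and 4 higher at 360 min against 0 min, with 19.2% of all genes called.

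Genes of the same pathway outside the set were counted from 6 lists with 100 genes, of which 91 were tested. At 360 min against 0 min 9 were higher and 12 lower, or 23.1% called, where 18.1% of all genes were, and their median was 0.01. Against 30 min 14 were higher and 13 lower, or 29.7% called, where 22.7% of all genes were. At 10 and 30 min 0 of them were called against 0 min. PLIN2, the main droplet coat protein of hepatocytes, fell by 0.27 (SE 0.04, edgeR adjusted p = 0.017) from 10 to 30 min, the only one of the 91 called in that comparison.

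Of 19 lipogenic regulators tested, 4 fell at 360 min against 0 min and 0 rose. Against 30 min 4 were lower and 4 higher, where 11.3% and 11.4% of all genes were. For this and the other lists against 0 min, 9.19% of all genes were called lower and 8.89% higher. SCAP, the escort protein of the SREBP factors, fell by 0.15 (SE 0.03, edgeR adjusted p = 0.0018), from 146 ± 1.2 to 131 ± 1.4 CPM. Against 30 min SCAP was not called (edgeR adjusted p = 0.092). NR1H3, which encodes the oxysterol receptor LXR alpha, fell by 0.22 (SE 0.05, edgeR adjusted p = 0.0055), and SREBF2, the SREBP gene tied to cholesterol synthesis, by 0.16 (SE 0.04, edgeR adjusted p = 0.011). The fourth was RXRA, the partner of LXR, at -0.12 ± 0.03 (edgeR adjusted p = 0.018), named after its value was seen. Among the genes that supply NADPH, the reductant of fatty acid synthesis, the folate enzyme gene MTHFD1 rose by 0.18 ± 0.03 (edgeR adjusted p = 0.0022), from 244 ± 4.6 to 278 ± 3.7 CPM.

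Other elongation and desaturation genes had 1 of 10 lower and 1 higher (9.19% and 8.89% of all genes). The elongase gene ELOVL3 fell by 0.99 (SE 0.22, edgeR adjusted p = 0.0074) at a low level, from 1.34 ± 0.22 to 0.684 ± 0.17 CPM, while ELOVL2, an elongase of polyunsaturated chains, rose by 0.18 ± 0.04 (edgeR adjusted p = 0.0043). Among 22 other activation and acyltransferase genes 4 fell and 2 rose. LPCAT1, of phosphatidylcholine remodelling, fell by 0.20 (SE 0.04, edgeR adjusted p = 0.0073), the very long chain synthetase gene SLC27A2 by 0.25 (SE 0.06, edgeR adjusted p = 0.0093) and ACSS3 by 0.15 (SE 0.04, edgeR adjusted p = 0.023). SLC27A4, named after its value was seen, was the other that fell. The monoacylglycerol acyltransferase gene MOGAT2 rose by 0.22 ± 0.05 (edgeR adjusted p = 0.0071) and the mitochondrial acetyl-CoA synthetase gene ACSS1 by 0.16 ± 0.05 (edgeR adjusted p = 0.026).

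Of 16 genes of droplet coats, lipolysis and lipoprotein assembly, 2 fell and 1 rose (9.19% and 8.89% of all genes). PLIN2 fell by 0.20 (SE 0.04, edgeR adjusted p = 0.0063), from 633 ± 32 to 550 ± 18 CPM, and the droplet fusion gene CIDEC by 0.23 (SE 0.05, edgeR adjusted p = 0.0072). APOB, the structural protein of very low density lipoprotein, rose by 0.22 ± 0.04 (edgeR adjusted p = 0.0037). In the phospholipid branch, which shares diacylglycerol with triglyceride synthesis, 4 of 18 genes rose against 0 min and 0 fell. Against 30 min 4 were higher and 2 lower, where 11.4% and 11.3% of all genes were. PCYT2, the rate-limiting enzyme of phosphatidylethanolamine synthesis from ethanolamine, rose by 0.32 ± 0.03 (edgeR adjusted p = 3e-05), from 194 ± 6 to 243 ± 3.1 CPM. PCYT1A and PCYT1B, the matching enzymes for phosphatidylcholine, rose by 0.15 ± 0.03 (edgeR adjusted p = 0.0054) and 0.46 ± 0.11 (edgeR adjusted p = 0.0097). ETNK2, an ethanolamine kinase named after its value was seen, was the other that rose.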

How the data were processed

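RNA of HepG2 cells, purified on poly(dT) beads, was sequenced from 12 libraries, per the labels' protocols. Read counts per gene were deposited by the authors as a single table of whole numbers. HISAT2, DESeq2 and GRCh38 are named in the list of tools and builds, per the submitters' processing notes. Their versions and roles, the counting program, its annotation and its strand setting were not given in the sources used here, so reads of overlapping genes cannot be told apart. The members and lists were chosen with earlier results of these data known.

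The deposited counts were fitted by edgeR 4.0.16 (R 4.3.3): filterByExpr by group, TMM scaling (factors 0.981 to 1.014), 1 quasi-likelihood model with 8 residual degrees of freedom over all 12 libraries, two-sided tests and Benjamini-Hochberg adjustment over 17779 genes. The SE is the absolute log2 fold change over the square root of F. The series text calls the replicates biological without naming separate cultures, so p-values reflect only the spread among these libraries. The code was tested on simulated data, with limits on false calls and missed changes set for edgeR and limma voom but not for DESeq2. Values in every library were given for members called with groups that did not overlap, members called in another comparison, the member of smallest p in a comparison without a call, and 8 core genes whatever their result. Other pathway genes were named up to 3 per list and direction. The result of 1 such gene is not reported here. Lengths and positions are from GENCODE 29 (96.34% of rows found), promoter windows from RefSeq. Alternatives were DESeq2 1.42.0, limma voom (limma 3.58.1), other scalings and filters, a fit of only the groups compared, a replicate block, a mitochondrial share term, each library left out and a lone untreated library.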

Additional observations from a re-analysis of the deposited data

How the results depend on the processing

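Of 234 counts and medians of the members recomputed under alternatives, 228 stayed within 1.5 times the count or within the replicate spread of the median. DESeq2 called 3 members higher at 10 min and 1 at 30 min, where edgeR called 0. With the replicate block 1 member, GPAM, was higher at 30 min (edgeR adjusted p = 0.025), with 0.613% of all genes called. With 0 min replicate 1 as the lone untreated library, assumed to vary like the other groups, 9 members were lower at 360 min in place of 14, and the median was -0.069 in place of -0.097; the cause was not tested. With that lone untreated library fewer of all genes were called as well, so the count of 9 alone does not show a weaker change in the members. Leaving out 1 library at a time, the median at 360 min against 30 min ran from -0.134 to -0.1. The counts lower at 360 min ran from 12 to 16 against 0 min and from 12 to 15 against 30 min. The counts higher ran from 3 to 4 against 0 min and stayed at 3 against 30 min. Of all genes tested, 12.2% to 14.6% were called in these fits against 0 min, in place of 18.1%. Against 30 min 16.4% to 19.8% were, in place of 22.7%. The replicate numbers are not shown to pair the libraries: 0 of 18 same-numbered pairs had a correlation of deviations over 0.1 (range -0.05 to 0.1), and 6 of 12 libraries correlated best with their own number. The replicate block gave 5 higher and 15 lower at 360 min against 0 min, with 17.3% of all genes called. Of the 18 members called at 360 min against 0 min in the main fit, 10 were called under all 16 alternatives. Of 845 values of single members under alternatives, 782 kept their result, whether called or not called in the main fit. A call was lost in 45 and gained in 18, and 0 called values changed sign. For members called in the main fit, whose groups did not overlap, leaving out libraries could hardly have changed a sign. With the length of the longest transcript, SCD and FASN stayed first and DBI moved to rank 3 from 6. Using only bases before the start, CCAAT was in 25 of 50 member windows. THRSP alone among the members did not pass the filter on low counts. MID1IP1 came next, with 2178 counts over the 12 libraries. How far depth limits the tested members was not tested.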
